A study of Macaca mulatta with 6 samples.

Results

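A set of 39 marker genes of microglia, macrophages and blood leukocytes was read in rhesus macaque retinas collected 24 h after irradiation of an optic nerve. The genes were taken by their symbol in the array's annotation, and 30 of the 39 had a named probe set, out of 14132 genes that could be named on the array. Where a gene had several probe sets the one of highest mean signal, here called the brightest, stands for it, and the rest are mentioned where they differ. The genes were sorted by the cells they are known to mark into resident microglia (6 of 7 genes measured), shared myeloid and leukocyte genes (9 of 12), monocytes and macrophages (3 of 4), neutrophils (5 of 5), T and natural killer cells (3 of 7) and B cells (4 of 4). P2RY13, FCER1G, LAPTM5, C3AR1, CD163, CD2, CD3D, CD3E and CD3G were not analysed here.

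The treated retinas came from 3 male monkeys aged 8 to 10 years, each of which had 15 Gy of gamma knife irradiation prescribed to the intraorbital optic nerve of 1 side, and the control retinas were those of the opposite eyes of the same animals. The eyeball on the treated side received 3 Gy and the one on the control side 1 Gy, so no retina came from an animal left without irradiation. Only the temporal part was used, dissected free of the pigment epithelium, and each retina was hybridised to 1 Affymetrix Rhesus Macaque Genome Array, which gave 3 treated and 3 control arrays. The sample labels give a replicate number and not the animal. Retinas of the same number were assumed to be a pair from 1 animal, and animals and pairs are named below by that number. All signals are log2 values of the MAS 5.0 algorithm, all differences are treated minus control on that log2 scale, and signals of different genes are not on 1 scale because their probes differ. Rod genes marked the tissue as retina: the arrestin gene SAG had signals of 15.25, 15.30 and 15.53 in the treated retinas and 15.44, 15.50 and 15.54 in the control retinas.

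Microglia are the resident macrophages of the retina. They lie in the inner retina and the plexiform layers, keep their numbers by local renewal under CSF1R signalling, and survey the tissue through purinergic and fractalkine receptors. After injury to the optic nerve they are known to change shape and gene expression, and many genes used to mark them are shared with monocytes that enter from the blood, so that markers of the lineages are read side by side. In RNA of a whole tissue, more cells of a type and more RNA per cell cannot be told apart.

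Some genes shared by myeloid cells and some of monocytes and neutrophils had higher signals in the treated retinas at an unadjusted p. So had JCHAIN and BLNK of the 4 B cell genes, and of all these JCHAIN passed the adjustment over the whole array. The B cell genes CD79A and MS4A1, at −1.61 and 0.28, were dim and had pairs on both sides of 0. The wider lists of granulocyte and lymphocyte genes, given below, had median differences of −0.014 and −0.26. Of their 8 and 13 measured genes, 0 were higher at an unadjusted p under 0.05 by limma, where 5.02% of all genes were. In the lymphocyte list 2 were lower, where 3.01% of all genes were. Among genes that mark resident microglia, AIF1 was higher at an unadjusted p and none was lower past that test. The member genes were chosen with earlier results of these data known, so their counts beside all genes describe the list and do not test it. Of the 30 measured genes, 10 were higher in the treated retinas at an unadjusted p under 0.05 (limma, paired by replicate number), against a background of 5.02% of all genes. They were AIF1, ITGB2, TYROBP, PTPRC, CD14, LYZ, S100A9, C5AR1, JCHAIN and BLNK. None of the 30 was lower at that level by limma or by the methods' paired t-test, where the background was 3.01% and 2.84%. After adjustment over all 52024 probe sets, 1 gene, JCHAIN, was higher (background 0.205%) and none was lower (background 0.00708%). The median difference of the 30 genes was 0.61, against 0.032 over all genes, and in the single pairs it was 0.32, 0.76 and 0.68.

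In all, 22 of the 30 genes had a difference above 0 (background 55.5%). The treated retina was the higher one in 3 of 3 pairs for 15 genes (background 19.3%) and the lower one in 3 of 3 pairs for 4 genes, P2RY12, TMEM119, TREM2 and ITGAM (background 13.6%). For 7 genes every treated retina lay above every control retina (background 4.30%), namely ITGB2, TYROBP, PTPRC, CD53, LYZ, C5AR1 and JCHAIN, and for none did every treated retina lie below (background 2.70%). By the paired t-test of the methods, 5 genes were higher at an unadjusted p under 0.05 (background 4.21%): AIF1, BLNK, CD53, JCHAIN and S100A12. Without pair 2 the limma count was 4 genes instead of 10, namely AIF1, CD14, JCHAIN and LYZ, where 4.65% of all genes were higher.

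**Figure D1:**
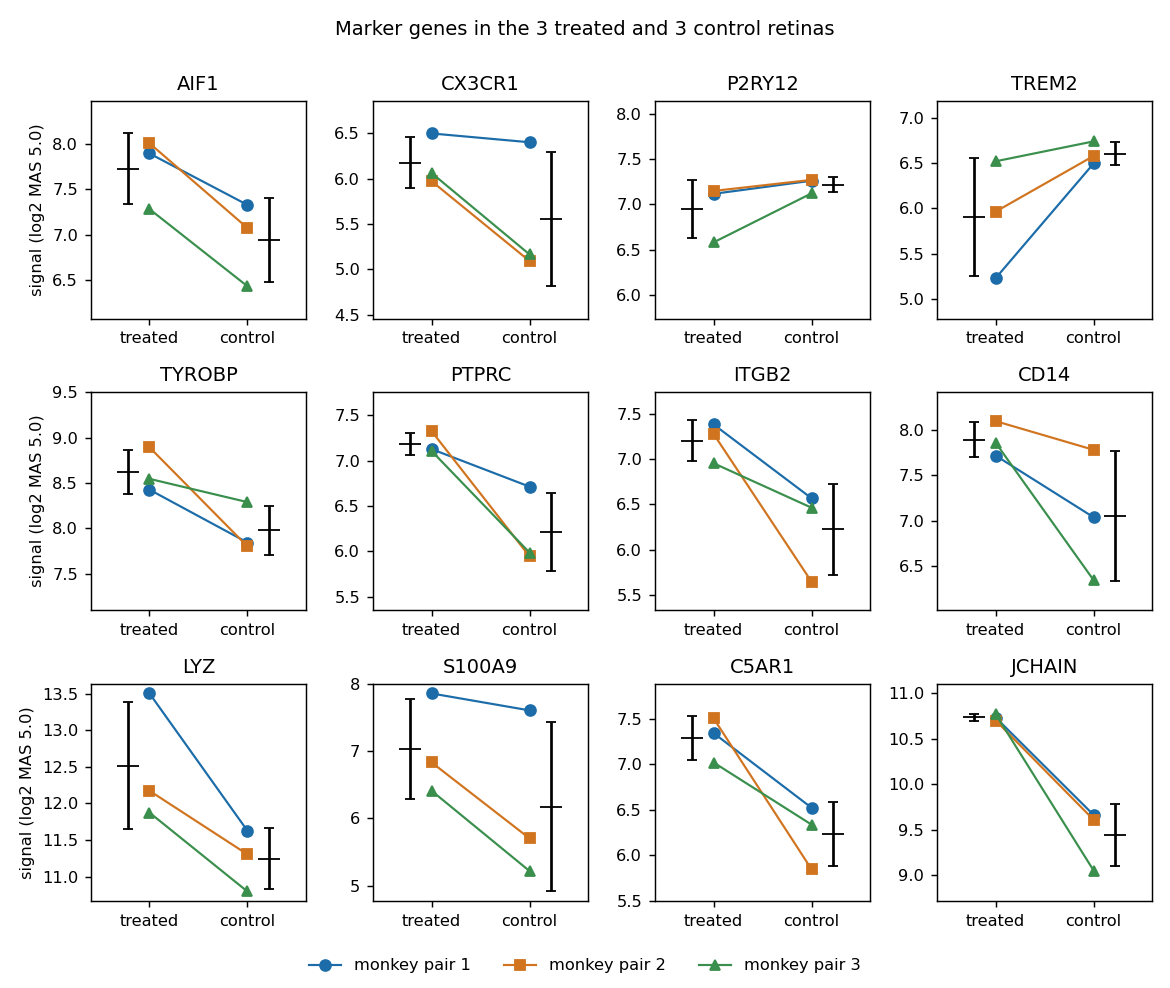
Log2 MAS 5.0 signal of 12 marker genes in each retina, treated on the left and control on the right, with lines joining the retinas of the same replicate number and black bars for the mean ± SD of 3 retinas. JCHAIN, LYZ, C5AR1, PTPRC, ITGB2 and TYROBP show no overlap between the groups, while P2RY12 and TREM2 were lower in the treated retina of each pair, as were 13.6% of all genes.

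Among resident microglia genes the differences ran from −0.70 to 0.78 with a median of 0.0038, and 3 of the 6 were above 0, as were 55.5% of all genes. AIF1 encodes IBA1, the calcium-binding protein used to stain microglia. Its signals were 7.90, 8.01 and 7.28 in the treated retinas and 7.33, 7.08 and 6.43 in the control retinas. The treated retina was higher in each pair, by 0.57, 0.93 and 0.85, although the lowest treated value lay under the highest control value. The limma difference was 0.78 ± 0.24 (SE; unadjusted p = 0.0126, adjusted p = 0.675). The second, dimmer probe set of AIF1 gave 0.45 ± 0.39 (SE; unadjusted p = 0.282), with pair 2 below 0. In limma the unadjusted p of AIF1 was 0.0629 with the mean over its probe sets and 0.0664 with no replicate block.

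CX3CR1, the receptor for the neuronal chemokine fractalkine, had signals of 6.50, 5.97 and 6.06 in the treated retinas and 6.4, 5.09 and 5.16 in the control retinas. The difference of 0.62 ± 0.46 (SE; adjusted p = 0.788) rested on pairs 2 and 3, since pair 1 differed by 0.10. CSF1R, the receptor whose ligands keep microglia alive, had signals of 7.72, 8.37 and 8.29 in the treated retinas against 7.99, 7.31 and 8.26 in the control retinas. Its pairs disagreed, with differences of −0.27, 1.07 and 0.03, and the fitted difference was 0.28 ± 0.27 (SE; adjusted p = 0.840). Without pair 2 it was −0.12.

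The other 3 microglial genes stood lower in the treated retina of each pair, and none passed the test. Of all 30 measured markers 4 stood lower in this way, beside 13.6% of all genes. P2RY12 encodes the ADP receptor by which surveying microglia sense injury. Its signals were 7.12, 7.15 and 6.58 in the treated retinas and 7.26, 7.27 and 7.12 in the control retinas, a difference of −0.27 ± 0.27 (SE; adjusted p = 0.843), and a second probe set gave −0.69. TREM2, a lipid-sensing receptor that signals through TYROBP, had signals of 5.23, 5.96 and 6.52 in the treated retinas and 6.50, 6.58 and 6.74 in the control retinas. The 3 control values lay close together and the treated values were spread. The pairs differed by −1.26, −0.61 and −0.22, and the fitted difference was −0.70 ± 0.40 (SE; adjusted p = 0.754). TMEM119, a membrane protein used to tell microglia from blood-derived macrophages, was dim, meaning a mean signal under 5. It had 3.69, 2.41 and 3.13 in the treated retinas and 4.0, 3.35 and 3.28 in the control retinas, with a difference of −0.47 ± 0.80 (SE; adjusted p = 0.916). The related receptor gene P2RY13, which the annotation places beside P2RY12 with 0 protein-coding genes between them, is among those not analysed here.

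**Figure D2:**
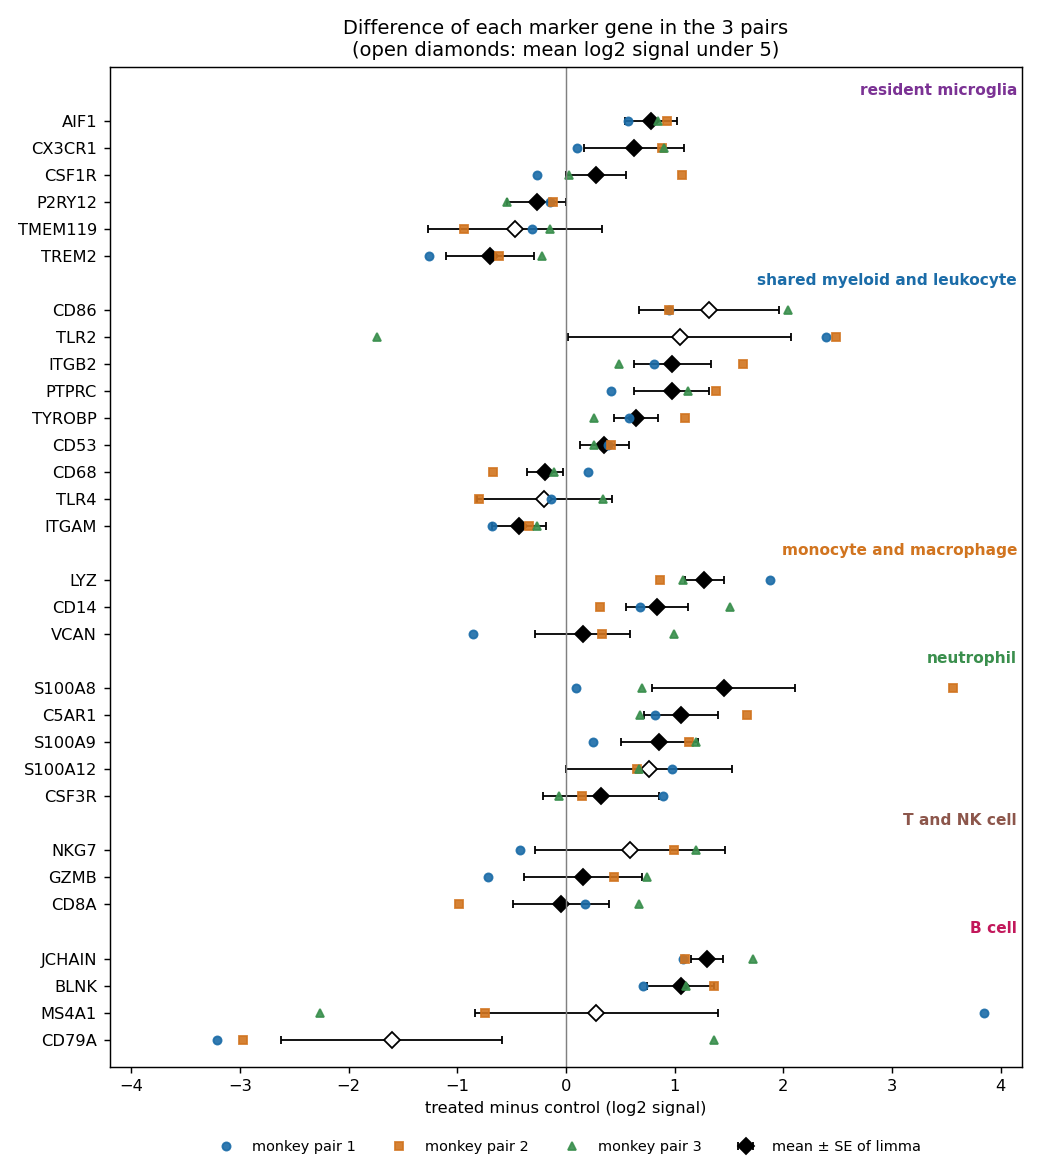
Treated minus control difference in log2 signal for the 30 measured genes, by group, with 1 small symbol per pair of the same replicate number and a diamond for the limma difference ± SE. Open diamonds mark the 8 genes with a mean log2 signal under 5. JCHAIN and LYZ had narrow errors and 3 of 3 pairs above 0, and the dim genes MS4A1, CD79A and TLR2 had pairs on both sides of 0.

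Of the 9 shared myeloid and leukocyte genes measured, 6 had a difference above 0, with a median of 0.64, and 3 were higher at an unadjusted p under 0.05, against 55.5% and 5.02% of all genes. The median was 0.37 without pair 1 and 0.33 without pair 2. PTPRC encodes CD45, the phosphatase on the surface of every nucleated blood-derived cell. Its signals were 7.13, 7.32 and 7.11 in the treated retinas and 6.71, 5.94 and 5.99 in the control retinas. The groups did not overlap and the control value of animal 1 was the closest to them. The difference was 0.97 ± 0.34 (SE; unadjusted p = 0.0231, adjusted p = 0.716), and the 3 dimmer probe sets of PTPRC gave 0.47, 1.40 and 0.35.

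TYROBP, also called DAP12, is the adaptor that carries signals from TREM2 and other receptors. Its signals were 8.43, 8.89 and 8.55 in the treated retinas and 7.84, 7.80 and 8.29 in the control retinas, without overlap. The treated mean was 8.62 ± 0.24 and the control mean 7.98 ± 0.27 (SD, 3 retinas each), and the difference was 0.64 ± 0.20 (SE; unadjusted p = 0.0140, adjusted p = 0.676). Its single probe set carries an identifier for probes that match more than 1 transcript. TYROBP and its partner TREM2 thus had differences of opposite sign, and the difference between them was not tested.

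ITGB2 and ITGAM encode the β and α chains of the complement receptor CR3, and ITGB2 also pairs with other α chains on leukocytes. ITGB2 had signals of 7.38, 7.28 and 6.95 in the treated retinas and 6.57, 5.65 and 6.46 in the control retinas, with no overlap and a difference of 0.98 ± 0.35 (SE; unadjusted p = 0.0255, adjusted p = 0.716). ITGAM had 7.29, 6.76 and 7.15 in the treated retinas and 7.97, 7.11 and 7.42 in the control retinas, a difference of −0.43 ± 0.25 (SE; adjusted p = 0.754). The chains of the receptor therefore stood on opposite sides of 0. The other 3 probe sets of ITGB2 were at −0.03, −0.33 and 0.03, and with the mean over all its probe sets its difference was 0.16.

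CD68 encodes a lysosomal glycoprotein of phagocytes. Its signals were 9.90, 9.16 and 10.12 in the treated retinas and 9.70, 9.83 and 10.23 in the control retinas, a difference of −0.19 ± 0.17 (SE; adjusted p = 0.818). The second probe set of CD68 went the other way, with 6.90, 6.22 and 7.02 in the treated retinas and 5.56, 5.48 and 4.33 in the control retinas. There the groups did not overlap and the difference was 1.59 ± 0.52 (SE; unadjusted p = 0.0166, adjusted p = 0.685), so the sign for CD68 depended on the probe set.

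CD53, a tetraspanin of leukocytes, had signals of 7.76, 7.62 and 7.53 in the treated retinas and 7.38, 7.21 and 7.27 in the control retinas. The groups did not overlap, but the difference was small, at 0.35 ± 0.22 (SE; adjusted p = 0.768), and the other 2 probe sets of CD53 gave −0.02 and 0.02. The costimulatory molecule gene CD86 and the pattern recognition receptor genes TLR2 and TLR4 were dim. CD86 gave 1.31 ± 0.64 and was higher in 3 of 3 pairs, TLR2 gave 1.04 ± 1.03 with pair 3 reversed, and TLR4 gave −0.20 ± 0.62 (SE), with adjusted p between 0.752 and 0.959. A second CD86 probe set was at −0.03, and the other probe sets of TLR4 were at 1.35 and 0.72.

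The 3 monocyte and macrophage genes measured had differences above 0, at 0.15, 0.84 and 1.27, and their median of 0.84 was 0.50 without pair 3. LYZ encodes lysozyme, the enzyme that cuts bacterial cell walls and is secreted in quantity by monocytes, macrophages and neutrophils. Its signals were 13.50, 12.17 and 11.87 in the treated retinas and 11.63, 11.30 and 10.80 in the control retinas. Each treated retina was above each control retina, and animal 1 had both the highest treated and the highest control value. The means were 12.52 ± 0.87 in treated retinas and 11.24 ± 0.42 in control retinas (SD, 3 retinas each). The difference was 1.27 ± 0.18 (SE), a fold of 2.42 with a 95% interval on the log2 scale from 0.86 to 1.69. Its unadjusted p was 0.000127 and its adjusted p 0.0745 in limma, which missed the threshold. The adjusted p was 0.0231 with arrays centred on their median, 3.67e-05 without pair 2 and 0.0186 without pair 3, and over all alternatives it ran from 3.67e-05 to 1.

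CD14, the lipopolysaccharide coreceptor of monocytes, had signals of 7.72, 8.10 and 7.86 in the treated retinas and 7.04, 7.78 and 6.34 in the control retinas. It was higher in 3 of 3 pairs, with an overlap through animal 2, and the difference was 0.84 ± 0.29 (SE; unadjusted p = 0.0203, adjusted p = 0.705). VCAN encodes versican, a proteoglycan that classical monocytes express strongly and that is also part of the retinal matrix. Its signals were 6.29, 6.59 and 6.77 in the treated retinas and 7.15, 6.26 and 5.78 in the control retinas, and the difference was 0.15 ± 0.44 (SE; adjusted p = 0.954). Its other 4 probe sets were at 0.64, 0.80, −0.19 and −2.09, and without pair 3 the difference of the brightest was −0.26.

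All 5 neutrophil genes had a difference above 0, with a median of 0.86, and 2 of them were higher at an unadjusted p under 0.05, against 55.5% and 5.02% of all genes. S100A8 and S100A9 encode the chains of calprotectin, which neutrophils and monocytes hold in large amounts, and S100A12 encodes a related protein. In the annotation S100A12 is adjacent to both, with 0 protein-coding genes between. S100A9 had signals of 7.86, 6.83 and 6.41 in the treated retinas and 7.61, 5.70 and 5.22 in the control retinas. The differences in the pairs were all above 0, yet the animals differed from each other by more than the treatment groups did, and the fit gave 0.86 ± 0.36 (SE; unadjusted p = 0.0446, adjusted p = 0.736). Its single probe set, like that of TYROBP, carries the identifier for several transcripts.

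S100A8 had signals of 7.70, 6.82 and 6.69 in the treated retinas and 7.61, 3.26 and 5.99 in the control retinas. Its difference of 1.45 ± 0.66 (SE; unadjusted p = 0.0595, adjusted p = 0.751) was the highest of the 30 genes. It came mainly from animal 2, whose control retina had the lowest value, since the pairs differed by 0.09, 3.56 and 0.70, and without pair 2 it was 0.40. S100A12 was dim, with 5.03, 3.29 and 3.75 in the treated retinas and 4.06, 2.63 and 3.08 in the control retinas. Its difference was 0.77 ± 0.76 (SE; adjusted p = 0.841), above 0 in 3 of 3 pairs.

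C5AR1, the receptor for the complement fragment C5a on neutrophils and macrophages, had signals of 7.34, 7.51 and 7.02 in the treated retinas and 6.52, 5.84 and 6.34 in the control retinas. The groups did not overlap, and the difference of 1.06 ± 0.34 (SE) exceeded the range of the control retinas (unadjusted p = 0.0152, adjusted p = 0.676). CSF3R, the receptor for granulocyte colony-stimulating factor, had 5.92, 5.64 and 5.22 in the treated retinas and 5.02, 5.49 and 5.28 in the control retinas. Pair 3 was slightly below 0, and the difference was 0.32 ± 0.53 (SE; adjusted p = 0.910).

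JCHAIN was the 1 gene that rose by the adjusted test. It encodes the joining chain that links antibody units into polymers and is made by antibody-secreting cells. Its signals were 10.73, 10.70 and 10.77 in the treated retinas and 9.66, 9.61 and 9.05 in the control retinas. The treated values lay within a range of 0.069 and all of them above the control values, with means of 10.73 ± 0.034 in treated retinas and 9.44 ± 0.34 in control retinas (SD, 3 retinas each). The difference was 1.30 ± 0.15 (SE), a fold of 2.46 with a 95% interval on the log2 scale from 0.95 to 1.64, and the adjusted p was 0.0370 in limma. The pairs differed by 1.07, 1.09 and 1.72.

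The JCHAIN probe set also carries the identifier for probes that match more than 1 transcript. The second JCHAIN probe set, which does not, was dim, with 5.48, 5.36 and 4.67 in the treated retinas and 4.75, 1.35 and 2.83 in the control retinas. It too was higher in 3 of 3 pairs, by 2.19 ± 0.87 (SE; unadjusted p = 0.037, adjusted p = 0.734). The call for JCHAIN was lost with no replicate block (adjusted p = 0.449), with no trend (adjusted p = 0.854), without pair 1 (adjusted p = 0.158) and with the mean of both probe sets (adjusted p = 0.365). Over the alternatives its difference lay between 1.08 and 2.19 and its adjusted p between 8.93e-05 and 0.854.

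The other B cell genes had differences on both sides of 0, and the median of the 4 was 0.67, or 0.21 without pair 1 and 1.06 without pair 3. BLNK, an adaptor of the B cell receptor that is also found in macrophages, had signals of 7.57, 7.64 and 6.78 in the treated retinas and 6.87, 6.28 and 5.68 in the control retinas. It was higher in 3 of 3 pairs by 1.05 ± 0.31 (SE; unadjusted p = 0.0102, adjusted p = 0.647), with the treated value of animal 3 under the control value of animal 1. CD79A, the signalling chain of the B cell receptor, was dim and had 2.52, 1.67 and 6.70 in the treated retinas and 5.73, 4.65 and 5.33 in the control retinas. Its difference of −1.61 ± 1.01 (SE; adjusted p = 0.765) had pair 3 on the other side of 0. MS4A1, which encodes CD20, was dim as well, with 6.14, 5.36 and 3.63 in the treated retinas and 2.29, 6.10 and 5.90 in the control retinas. Its difference was 0.28 ± 1.12 (SE; adjusted p = 0.970), its other 3 probe sets were at −1.56, −1.52 and 0.24, and without pair 1 it was −1.51.

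The 3 T and natural killer cell genes measured had no difference past the test. CD8A, a coreceptor of cytotoxic T cells, had 6.69, 5.40 and 6.78 in the treated retinas and 6.52, 6.38 and 6.12 in the control retinas, with a difference of −0.05 ± 0.44 (SE; adjusted p = 0.988). The 95% interval from −1.08 to 0.98 leaves room for a change in either direction. GZMB, the cytotoxic granule protease granzyme B, had 5.07, 5.90 and 5.86 in the treated retinas and 5.79, 5.46 and 5.12 in the control retinas, with a difference of 0.16 ± 0.54 (SE; adjusted p = 0.965). NKG7, a granule membrane protein, was dim, with a difference of 0.59 ± 0.87 (SE; adjusted p = 0.901).

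The weight that each value can bear depended on its signal. Over all genes the median standard error of the difference was 0.843 below a signal of 5, 0.374 between 6 and 7, 0.169 between 8 and 9 and 0.104 between 10 and 12. Of the 30 marker genes, 8 were dim, and 17 of the 22 that were not dim had a difference above 0 (background of genes not dim 57.0%), with a median of 0.63. JCHAIN and LYZ, at mean signals of 10.09 and 11.88, lay above the central 90% of all genes with signals between 10 and 12, which ran from −0.26 to 0.30. TYROBP, at 8.30, lay above the range of −0.34 to 0.44 for its signal, as AIF1 and CD14 lay above that of −0.46 to 0.57 for signals between 7 and 8. P2RY12 and ITGAM lay inside the last range.

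**Figure D3:**
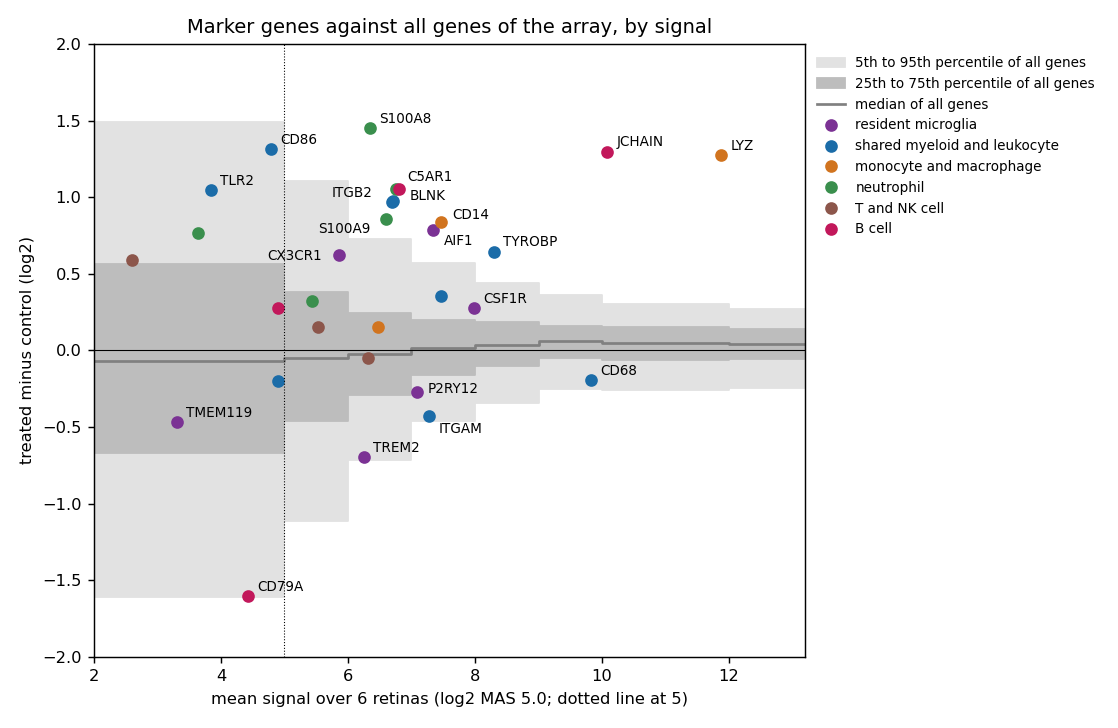
Treated minus control difference against mean log2 signal for the 30 marker genes, colored by group, over bands that hold the central 50% and 90% of all genes in each range of signal. JCHAIN and LYZ stand above the band at high signal, while CD86, TLR2 and CD79A lie within or at the edge of the wide band below 5.

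Of the 30 genes, 12 had more than 1 probe set, and in 7 of these 12 the probe sets had differences of both signs. Over all 53 probe sets of the marker genes, 12 were higher at an unadjusted p under 0.05 (background over all probe sets 2.97%), none was lower (background 3.77%), and 1 passed the adjusted test (background 0.110%). AIF1, P2RY12, PTPRC, CD8A and JCHAIN had the same sign in each of their probe sets.

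**Figure D4:**
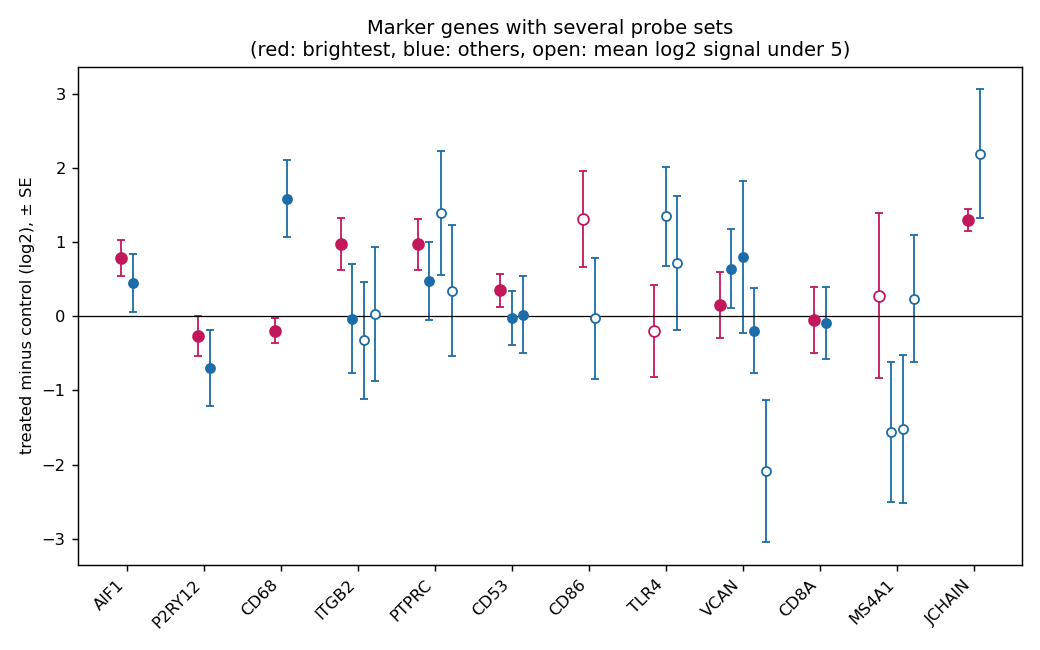
Treated minus control difference ± SE of every probe set of the 12 marker genes that have several, with the brightest in red, the others in blue and open symbols for a mean log2 signal under 5. Both probe sets of JCHAIN are above 0, whereas the probe sets of CD68 are at −0.19 and 1.59.

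The animals differed among themselves as well. The control retina of animal 1 had the highest control value for 21 of the 30 genes, and the treated retina of animal 1 the highest treated value for 13. These arrays also had the highest median of their group over all probe sets, at 7.03 and 6.98. The same counts were not taken over all genes, so they are not read as a trait of the markers. The absolute difference exceeded the range of the 3 control retinas for 10 genes, which were P2RY12, TREM2, ITGB2, TYROBP, PTPRC, CD53, LYZ, C5AR1, JCHAIN and the dim CD79A. For this count, too, no share over all genes was taken, and nothing is concluded from it. S100A8 and MS4A1 had the widest control values, spanning 4.35 and 3.81.

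Genes of red cells and platelets were read as a measure of blood in the samples. Of 10 such genes 5 were measured, and their summed linear signal ran from 839 to 2643 in the treated retinas and from 830 to 2658 in the control retinas. None of the 5 was past an unadjusted p under 0.05 (background 5.02% higher and 3.01% lower), and the hemoglobin genes HBA and HBB differed by −0.14 and 0.28. Of 6 vessel genes 4 were measured, with sums of 1489 to 2561 in treated retinas and 1427 to 2662 in control retinas. Among these the tight junction gene CLDN5 was at −0.45 ± 0.12 (SE; unadjusted p = 0.00704, adjusted p = 0.600) and the other 3 were above 0 without passing. Markers of other retinal cells were read in the same way. The astrocyte genes GFAP and PAX2, of 3 listed, summed to 4308 to 16746 in the treated retinas and 1634 to 2381 in the control retinas. GFAP rose by 2.14 ± 0.23 (SE; adjusted p = 0.0303), and PAX2 was dim and did not pass. The 3 Müller glia genes each passed an unadjusted p under 0.05, where 5.02% of all genes were higher and 3.01% lower, and none passed adjustment. The retinoid-binding protein gene RLBP1 was at −0.45 ± 0.09 and the glutamine synthetase gene GLUL at −0.28 ± 0.10, while the glutamate transporter gene SLC1A3 was at 0.58 ± 0.10 (SE). Their summed signal ran from 37012 to 47673 in treated retinas and from 41090 to 53044 in control retinas. The 3 rod genes measured of 4 were each lower in 3 of 3 pairs (background 13.6%), with sums of 91249 to 115818 in treated retinas and 107908 to 123601 in control retinas, and PDE6A passed an unadjusted p under 0.05 at −0.34 while SAG and GNAT1 did not. Of the 2 cone genes GNAT2 was at −0.30 (unadjusted p = 0.0358) and ARR3 at −0.17, with sums of 17656 to 31378 in treated retinas and 22293 to 33954 in control retinas. The pigment epithelium gene BEST1, the 1 measured of 3, had 150 to 1132 in treated retinas and 579 to 691 in control retinas. The part of these cell types in the values of the leukocyte genes was not tested.

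A wider list of 57 genes of the microglial programme (transcription factors, ligands, phagocyte oxidase and cytoskeletal genes) had 41 measured. Of these, 24 had a difference above 0 with a median of 0.11, where 55.5% of all genes were above 0. The unadjusted p was under 0.05 for 5 higher genes and 1 lower gene, against 5.02% and 3.01% of all genes, and none passed the adjusted test. CD9, a tetraspanin that is also expressed by glia, had signals of 11.23, 11.85 and 10.68 in the treated retinas and 10.71, 10.59 and 9.72 in the control retinas, a difference of 0.92 ± 0.14 (SE; adjusted p = 0.116). LCP1 encodes plastin 2, the actin-bundling protein of leukocytes. It had 8.66, 8.97 and 8.35 in the treated retinas and 7.75, 7.63 and 7.63 in the control retinas, a difference of 0.99 ± 0.19 (SE; adjusted p = 0.285) without overlap.

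SLC2A5, the fructose transporter GLUT5 of human microglia, had 8.73, 8.45 and 8.0 in the treated retinas and 7.76, 7.61 and 7.34 in the control retinas. The groups did not overlap, and the difference was 0.82 ± 0.19 (SE; adjusted p = 0.416). The phagocyte oxidase subunit gene NCF1 and the leukocyte GTPase gene RAC2 were the other genes higher at an unadjusted p under 0.05, by 1.47 and 1.11. MEF2C, a transcription factor of microglia that is also strong in neurons, was the 1 lower gene, at −0.30 ± 0.11 (SE; adjusted p = 0.728).

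Wider lists of granulocytes and lymphocytes were read beside the markers. Of 15 granulocyte genes, mostly of granules, 8 were measured. None passed an unadjusted p under 0.05 by limma in either direction (background 5.02% higher and 3.01% lower). Their median difference was −0.014, and the strongest by the moderated statistic were the antimicrobial peptide gene CAMP at 0.92 ± 0.74, the elastase gene ELANE at 0.64 ± 0.62 and the collagenase gene MMP8 at −0.63 ± 0.69 (SE). CAMP and MMP8 were dim, and CAMP had an unadjusted p of 0.0319 by the methods' paired t-test. Of 22 lymphocyte genes 13 were measured, with 3 of them above 0 (background 55.5%), 10 below 0 and a median of −0.26. In the single pairs the median was 0.16, −0.67 and −0.11, so pair 1 went the other way. At an unadjusted p under 0.05, none was higher, against 5.02% of all genes, and 2 were lower, against 3.01%. These were CD79B, the partner of CD79A, at −1.74 ± 0.71, and the granzyme gene GZMA at −0.26 ± 0.11, while the killer cell receptor gene KLRD1 was at 0.18 ± 0.09 (SE). Their adjusted p lay between 0.734 and 0.752. The probe sets named GZMA, GZMK and KLRD1 were bright in every retina and whether they measure these genes was not tested. LYZ and the brightest JCHAIN probe set were bright too, at mean signals of 11.88 and 10.09, and the same was not tested for them. Without GZMA, GZMK and KLRD1, 8 of 10 lymphocyte genes were below 0 with a median of −0.35.

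Genes by which leukocytes hold to and cross the vessel wall were measured for 7 of 8. None passed an unadjusted p under 0.05 (background 5.02% higher and 3.01% lower), and the median was 0.14. The endothelial selectin gene SELE, which was dim, was at 1.09 ± 0.66, the junction gene F11R at 0.28 ± 0.18 and the integrin ligand gene ICAM1 at −0.95 ± 0.67 (SE). ICAM1 had one low value, with 6.74, 6.38 and 3.17 in the treated retinas and 6.32, 6.77 and 6.07 in the control retinas.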

How the data were processed

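Labelled RNA from 3 treated and 3 control retinas was hybridised to 1-color arrays, 1 per retina. The deposited values are log2 MAS 5.0 signals that the authors computed in GeneSpring, with each array scaled by itself to a common mean and a MAS5 version not given in the sources used here. Array medians were 6.98, 6.44 and 6.75 on the treated arrays and 7.03, 6.74 and 6.69 on the control arrays, and from 22.6% to 29.7% of probe sets lay under 5, where values scatter. Having 6 arrays limits the precision throughout.

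Differences of treated minus control were fitted for 52024 probe sets, control probe sets left out, in R 4.3.3 by lmFit and eBayes (trend on) of limma 3.58.1, with the Benjamini-Hochberg adjustment over all of them. No filter and no further normalization were applied. The replicate number was a block, as the methods pair both retinas of a monkey. The labels do not tie a number to a monkey, so this pairing was assumed. Deviations from the group means correlated at 0.357, 0.137 and 0.161 within numbers, and between −0.243 and 0.104 across numbers. The methods' paired t-test was run on the same values. Of the probe sets, 24956 had 1 gene symbol in the platform annotation, 361 had several and 26707 had none, and symbols were updated by gene identifier through the gene table of T2T-MMU8v2.0, where 98.6% were found. Gene order was read from its positions, and no coordinates are printed.

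The member genes, groups and wider lists were chosen with earlier results of these data known. Values in each retina are given for members past an unadjusted p under 0.05, for the 2 members of a group with the largest difference that are not dim, and for defining markers; CSF1R, CD53, TLR2 and others are also named as every member is accounted for. In wider lists the 3 genes with the largest moderated statistic are given, and NCF1, RAC2, MEF2C and SELPLG were added after their values were seen. The scripts were tested on simulated data. Alternatives were no replicate block, no trend, quantile normalization, median centring, a filter on dim probe sets, leaving out each pair, and the mean over all probe sets of a gene. Leaving out probe sets that match several transcripts was added after seeing the data, as was leaving GZMA, GZMK and KLRD1 out of the lymphocyte list. Python 3.11.15 and matplotlib 3.10.9 drew the figures.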

Additional observations from a re-analysis of the deposited data

How the results depend on the processing

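The difference kept one sign in every alternative for 23 of the 30 genes, and the count of genes higher at an unadjusted p under 0.05 stayed at 10 with quantile normalization and with the filter on dim probe sets, for the same 10 genes. That count was 5 by the methods' t-test and from 4 to 9 when a pair was left out, with the lowest value without replicate 2. The count lower was 0 to 1 when a pair was left out, with CD79A lower without replicate 3. The count higher at an adjusted p was 2 (JCHAIN and LYZ) after median centring, from 0 to 2 when a pair was left out (0 without replicate 1), and 0 with the mean over all probe sets, the methods' t-test, no trend, or without probe sets that match several transcripts. Without the pairing, with no replicate block, it was 0, and 7 genes were higher at an unadjusted p under 0.05, where 1.69% of all genes were higher, against 5.02% with the block.

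Over the whole array, 57 probe sets were higher and 1 lower at an adjusted p under 0.05. Leaving out a pair gave 17 to 166 higher and 0 to 56 lower, quantile normalization 2 lower, and the t-test, no trend and no replicate block 0 and 0. The mean over probe sets gave 25 and 0, counted over named genes and probe sets without a single symbol together. When a pair was left out, the median lay between −0.17 and 0.13 for microglia, 0.33 and 0.84 for shared myeloid genes, 0.50 and 1.10 for monocytes, 0.72 and 1.16 for neutrophils, −0.14 and 0.59 for T and natural killer cells, and 0.21 and 1.06 for B cells.

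Some differences changed sign. With the mean over probe sets, CD68 was at 0.70, TLR4 at 0.62, VCAN at −0.14 and MS4A1 at −0.64. When a pair was left out, CSF1R lay between −0.12 and 0.55, CD68 between −0.39 and 0.044, TLR4 between −0.47 and 0.10 and CD8A between −0.40 and 0.42, each with the other sign without replicate 2. VCAN lay between −0.26 and 0.66, GZMB between −0.14 and 0.59 and MS4A1 between −1.51 and 1.55. CD8A was at 0.050 after median centring and 0.070 after quantile normalization. The cause was not tested.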

Other observations

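Some genes that mark T and natural killer cells in blood had bright probe sets in every retina. GZMK was at 11.84, 11.78 and 12.03 in the treated retinas and 11.86, 12.14 and 12.13 in the control retinas. KLRD1 was at 11.53, 11.77 and 11.29 in the treated retinas and 11.39, 11.51 and 11.17 in the control retinas, and GZMA at 9.57, 10.55 and 10.51 in the treated retinas and 9.99, 10.65 and 10.76 in the control retinas. The groups overlapped for each of the 3 genes, which were singled out after their values were seen. What these probe sets measure in retina was not tested.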
